A study of Mus musculus with 12 samples.

Results

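A set of 10 transcription factors known to specify mesoderm and endoderm was followed through the 4 groups of the RNA sequencing, as a readout of RNA from cells outside the neural lineage. The set was given by name, not by any measured value, and comprised *T* (Brachyury), *Mixl1*, *Eomes*, *Tbx6*, *Mesp1*, *Hand1*, *Gata4*, *Gata6*, *Sox17* and *Foxa2*. All 10 were found among the 45706 genes of the count table, and 7 passed the filter on low counts and were tested. *Mixl1*, *Tbx6* and *Mesp1* did not pass and are given by their counts.

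The cells were derived from C57BL/6 mouse embryonic stem cells (ESCs) carrying GFP in one copy of *Sox1*, a factor of early neural stem cells. Baseline cells are *Sox1*-negative glial progenitors, which were not sorted according to the labels, whereas the text of the study describes sorting for cells with and without induced GFP. Whether Sox1posGP against Baseline also compares sorted with unsorted cells is therefore not settled. Sox1posGP cells are *Sox1*-positive glial progenitors and were sorted. The study generated them from progenitor lines, each grown from a single cell, that stably express the transcriptional activator dCas9-VP64 and receive guide RNAs against the *Sox1* promoter. NSC denotes neuroepithelial cells that were not sorted and NR denotes neural rosettes, sorted by GFP. Both were derived from the same reporter ESCs. Which clonal line gave which library, and whether Baseline libraries carried guide RNAs, is not given in the sources used here. Each group comprised 3 biological samples made on different days.

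In the embryo, Nodal and Wnt signals switch on a small set of factors in the primitive streak, the site where cells leave the epiblast to form mesoderm and endoderm. *T*, *Eomes* and *Mixl1* mark the streak, *Tbx6* and *Mesp1* the mesoderm that leaves it, *Hand1* lateral and extraembryonic mesoderm and the heart, and *Gata4*, *Gata6*, *Sox17* and *Foxa2* endoderm and, in part, heart. Several of these genes have further sites of expression. *T* and *Foxa2* are also made in the node and notochord, and *Foxa2* in the floor plate of the neural tube, the ventral strip that secretes Shh. *Gata4*, *Gata6*, *Sox17* and *Hand1* are made in extraembryonic tissues. ESC cultures can hold cells with low levels of several of them.

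*T*, *Eomes* and *Foxa2* carried the contrasts described next, and the 250 bases ahead of their transcription start (RefSeq, GRCm38.p6, the same assembly as mm10) are shown for that reason, 5′ to 3′ on the strand of the gene. Capitals mark the letters CTTTGA, the core to which TCF/LEF factors of the Wnt pathway bind, and AGGTGT, part of the T-box element, on either strand. *T* is at chr17:8434173-8434422 on the plus strand, *Eomes* at chr9:118477939-118478188 on the plus strand, and the first of 3 *Foxa2* entries at chr2:148046970-148047219 on the minus strand.
T: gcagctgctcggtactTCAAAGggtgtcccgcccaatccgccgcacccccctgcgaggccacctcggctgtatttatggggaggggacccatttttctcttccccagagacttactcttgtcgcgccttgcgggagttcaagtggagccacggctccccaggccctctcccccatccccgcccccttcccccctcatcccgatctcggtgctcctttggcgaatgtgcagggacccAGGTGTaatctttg
Eomes: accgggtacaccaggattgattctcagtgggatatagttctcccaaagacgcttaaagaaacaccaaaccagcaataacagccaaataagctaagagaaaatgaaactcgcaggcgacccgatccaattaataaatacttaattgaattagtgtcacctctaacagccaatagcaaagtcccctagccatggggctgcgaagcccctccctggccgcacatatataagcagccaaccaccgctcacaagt
Foxa2: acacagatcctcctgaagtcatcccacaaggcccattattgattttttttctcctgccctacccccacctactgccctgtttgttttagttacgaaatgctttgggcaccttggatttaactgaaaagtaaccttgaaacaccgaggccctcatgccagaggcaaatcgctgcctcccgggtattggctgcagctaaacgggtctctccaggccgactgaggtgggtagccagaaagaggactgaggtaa
The *T* window held CTTTGA on its minus strand, starting 234 bases ahead of the start, and AGGTGT on its plus strand at 14 bases. The windows of *Eomes* and *Foxa2* held neither, and none of these 3 windows held the forkhead core TGTTTAC, the core AGATAA bound by factors such as *Gata4*, or TATAAA, the letters of the classical core promoter box. Of the other 2 *Foxa2* entries, the one whose window begins at 148045465 held TATAAA on the opposite strand at 208 and AGATAA at 183 bases ahead of its start, and the other held no searched string and had a GC content of 67.2% with 20 CpG sites. None of the letter strings overlapped another in these windows. Over all 32851 promoter windows of the table, 13.8% held CTTTGA, 11.8% AGGTGT, 9.99% AGATAA, 3.17% TGTTTAC and 12.4% TATAAA. The letters were chosen after the sequences had been seen, and a match is a description of these bases alone. The *T* window had a GC content of 62.8% with 14 CpG sites, against 46.4% and 8 for *Eomes* and 50.8% and 6 for this *Foxa2* window. The median of all windows was 52.4% with 6 CpG sites. Of the 10 regulators 5 had an entry in the table.

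The libraries differed in depth and in their cell markers. Total counts ran from 4939268 to 18351483 in Baseline, 3407066 to 6315574 in Sox1posGP, 29046205 to 43095688 in NSC and 16707006 to 34594885 in NR. Values are given in CPM, the count relative to the library total after TMM scaling, which corrects for library composition. Adjusted p values are from the quasi-likelihood test of edgeR, corrected after Benjamini and Hochberg for all genes tested. In CPM 3 counts, taken as the floor of a library, corresponded to at most 0.626 CPM in Baseline, 0.869 in Sox1posGP, 0.104 in NSC and 0.185 in NR. *Sox1* was measured at 4.83, 6.00 and 5.43 CPM in Baseline, 20.3, 20.9 and 21.7 in Sox1posGP, 48.6, 64.9 and 51.8 in NSC and 4.62, 20.0 and 19.2 in NR. Replicate 1 of the GFP-sorted NR group was thus at the level of the *Sox1*-negative cells. The summed level of 9 pluripotency genes was 1713 to 3218 CPM in NR and 59.4 to 173 CPM in NSC, against 7.51 to 11.2 CPM across Baseline and Sox1posGP, with none of the 9 at 0 in any group as a whole. Replicates 2 of NSC and NR stood apart from the other libraries of their groups, and results of the regulators that rest on them are given with and without them.

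The 10 regulators together summed to 21.7 to 29.7 CPM in Baseline, 31.6 to 39.7 in Sox1posGP, 40.6 to 57.0 in NSC and 97.8 to 147 in NR. In Baseline and Sox1posGP between 2 and 4 of the 10 were above 3 counts in a library, in NSC 8 or 9 and in NR 9. At one floor for all libraries, the CPM of 3 counts in the smallest one, the numbers were 2 to 4 in Baseline and Sox1posGP, 5 or 6 in NSC and 7 or 8 in NR. Per exon length (RPKM), *Gata4* led in Baseline at 5.20 ± 0.819 (SD, n = 3) and in Sox1posGP at 6.92 ± 0.804, followed in both by *Foxa2*. In NSC *Foxa2* led at 14.5 ± 4.68 RPKM and its replicates did not overlap those of *Gata4*, the next, at 1.1 ± 0.394. In NR *T* had the highest mean at 18.6 ± 13.8 RPKM, although its range overlapped that of *Foxa2* at 8.92 ± 3.46. In bulk RNA more cells of a type and more RNA per cell cannot be told apart.

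**Figure D1:**
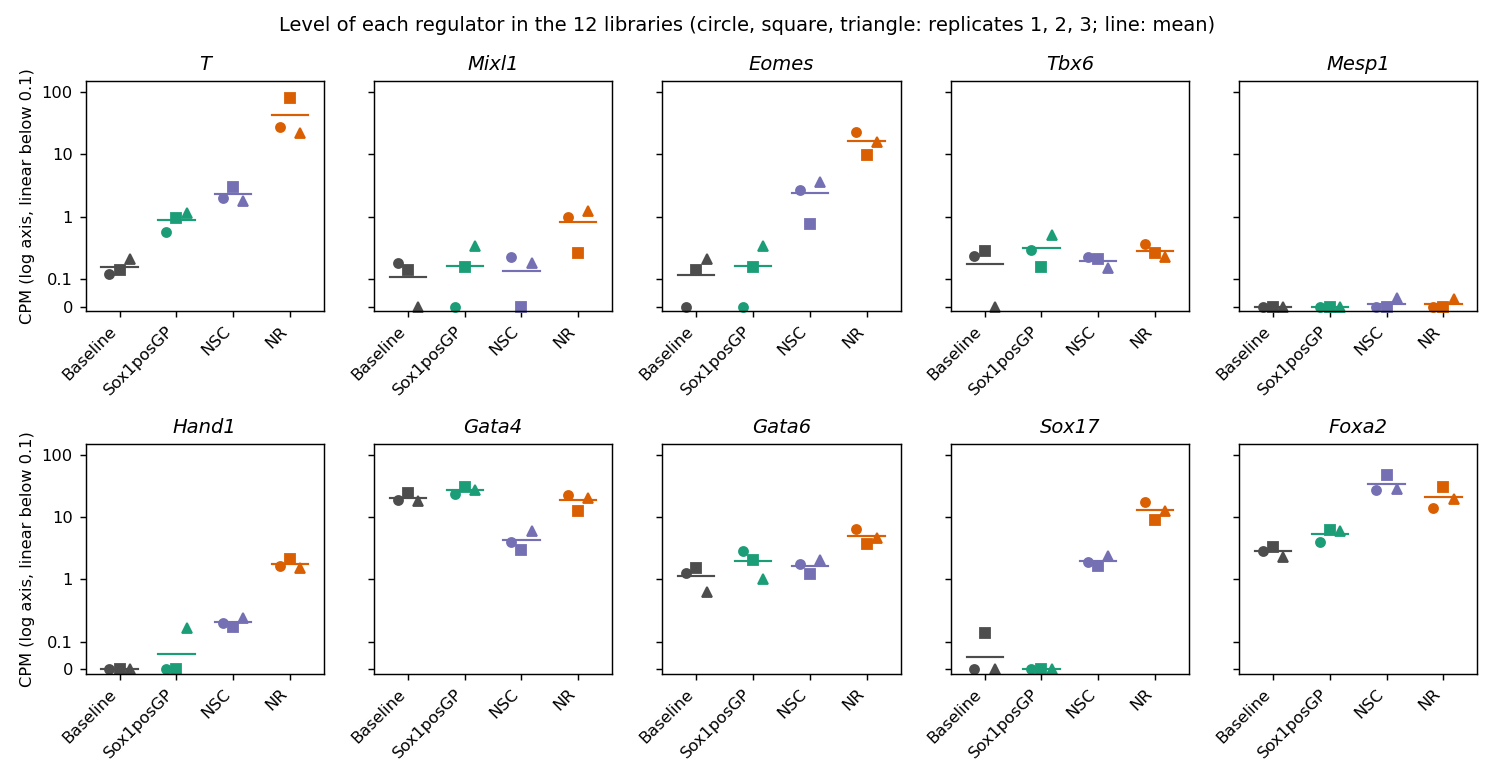
Level of the 10 regulators in each library, in CPM on a logarithmic axis that is linear below 0.1, with one panel per gene. Circles, squares and triangles are replicates 1, 2 and 3 and horizontal lines are group means (n = 3). *T*, *Eomes* and *Sox17* are close to 0 in Baseline and highest in NR, *Gata4* is lowest in NSC, and *Foxa2* is high in both NSC and NR.

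Counted over the 7 regulators tested, 1 (*Foxa2*) was higher and none lower in Sox1posGP than in Baseline, at an adjusted p under 0.1 in edgeR. Of all 17003 genes tested 21.6% were higher and 22.7% lower in this comparison. In NSC against Baseline *T*, *Eomes*, *Hand1*, *Sox17* and *Foxa2* were higher and *Gata4* lower, 5 and 1 in number (44.4% and 33.7% of all genes). In NR against Baseline 6 were higher, all but *Gata4*, and none lower (45.6% and 34.1%). In NR against NSC 6 were higher and 1, *Foxa2*, lower, where 30% of all genes were higher and 26.6% lower. The median log2 fold change of the 7 was 0.96, 3.95, 7.69 and 2.72 in these comparisons, against 0.00, 0.20, 0.19 and 0.01 over all genes. With *Hand1* set to its bound against Baseline the median was 3.57 in NSC and 4.09 in NR. The 3 comparisons with Baseline share its libraries, and the filter kept genes that are high in only one group, so these counts describe the 7 genes and not all 10. Of the 7, the replicates did not overlap for 2 higher in Sox1posGP (25.7% of all genes), for 5 higher and 1 lower in NSC (43.8% and 33.5%), for 6 higher in NR (44.4%, with 33.4% lower), each against Baseline, and for 6 higher in NR against NSC (30%).

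**Figure D2:**
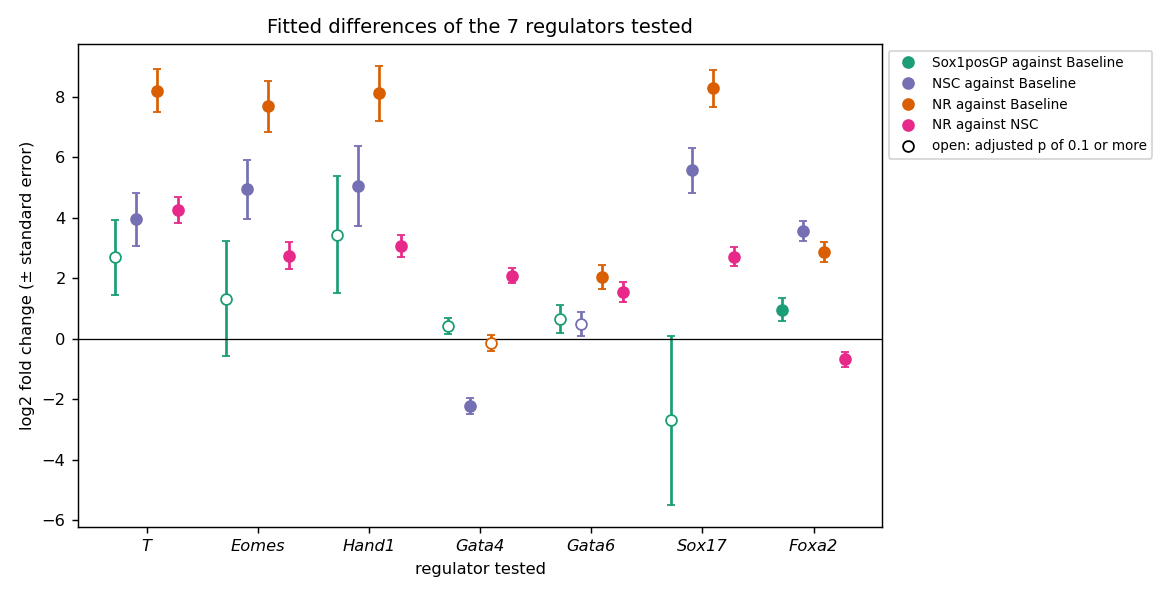
Log2 fold change with its standard error for the 7 regulators tested, in the 4 comparisons (3 libraries per group, edgeR). Filled points have an adjusted p under 0.1 and open points do not. In NR against NSC 6 of the 7 lie above 0 and *Foxa2* at -0.69. Fitted values against Baseline rest on 4 or fewer counts for *T*, *Eomes*, *Hand1* and *Sox17*.

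*T*, the T-box factor of the primitive streak and notochord (chromosome 17, 8434423 to 8442496, plus strand), was lowest in the progenitors and highest in NR. It had 2, 1 and 1 counts in Baseline, 2, 6 and 7 in Sox1posGP, 90, 87 and 59 in NSC and 449, 2475 and 770 in NR. In CPM these were 0.119, 0.140 and 0.209, then 0.579, 0.942 and 1.17, then 2.01, 3.00 and 1.80, and finally 27.6, 79.8 and 21.6. The 4 groups followed each other in this order without any overlap of replicates, although all Baseline libraries and Sox1posGP replicate 1 were below the floor of 3 counts, so that the order of these 2 groups rests on values under it. Replicate 2 was the highest library in both NSC and NR. *T* was higher in NR than in NSC by a log2 fold change of 4.25 (SE 0.43, adjusted p = 6.74e-06, edgeR) and higher in NSC than in Baseline by 3.95 (SE 0.89, adjusted p = 0.00117). From pooled counts NR held 320.2 times the *T* level of Baseline (95% exact interval 125 to 1176, which covers counting error of reads only), because only 4 counts were found in the 3 Baseline libraries. The fitted log2 fold change of NR was 8.20 over Baseline and 4.25 over NSC, and without NR replicate 2, which held 2475 of the 3694 *T* counts of NR, it was 7.39 and 3.44.

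For Sox1posGP against Baseline the same gene had a log2 fold change of 2.70 (SE 1.24), which did not pass (adjusted p = 0.106, edgeR). The replicates did not overlap, and 15 counts stood against 4 (pooled ratio 6.81, 95% exact interval 2.17 to 28.2). In 8 of 20 alternatives the adjusted p was under 0.1, and over all of them it ranged from 0.00100 to 0.289. It was 0.00146 without replicate 2 of NSC and NR, which enter the common estimate of the spread.

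*Eomes*, the T-box factor that acts with Nodal in streak and endoderm (chromosome 9, 118478212 to 118486132, plus strand), was close to absent outside NSC and NR. It had 0, 1 and 1 counts in Baseline and 0, 1 and 2 in Sox1posGP. In NSC it reached 2.73, 0.760 and 3.60 CPM and in NR 22.5, 9.74 and 16.1 CPM. Replicate 2 was the lowest library in NSC and in NR, the reverse of *T*, and no library of NR overlapped one of NSC. *Eomes* was higher in NR than in NSC by a log2 fold change of 2.75 (SE 0.45, adjusted p = 0.000265, edgeR). Against Baseline, pooled counts gave a ratio of 35.3 in NSC (95% exact interval 9.68 to 293) and of 214.8 in NR (59.3 to 1776). The fitted log2 fold change over Baseline was 4.94 in NSC and 7.69 in NR. It was 3.76 and 6.51 without Baseline replicate 1, the deepest Baseline library, which had no *Eomes* count, and 5.63 and 8.37 without Baseline replicate 3. *Eomes* is also made in intermediate neuronal progenitors of the cortex. Of 7 genes listed for those cells, all 7 were lower in NR than in NSC (26.6% of all genes). In NSC against Baseline 6 were higher and 1 lower (44.4% and 33.7% of all genes). Their summed level was 696 to 769 CPM in NSC, 292 to 443 in NR, 429 to 460 in Baseline and 258 to 270 in Sox1posGP. The list was thus not confined to the groups with *Eomes*. *Btg2*, a brake on proliferation, was at 133 ± 11.7 CPM in Baseline, 175 ± 3.89 in NSC and 99.1 ± 21.5 in NR. *Gadd45g*, a stress and differentiation gene, was at 292 ± 18.4 CPM in Baseline, 185 ± 8.99 in NSC and 119 ± 11.1 in NR. The part of intermediate neuronal progenitors in the *Eomes* level was not tested. The annotated antisense gene *Gm33460* shares 118 exon bases with *Eomes*, and the strand setting of the counts is not given in the sources used here.

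*Mixl1*, a homeobox target of Nodal in the streak, stayed at or below 3 counts in every Baseline and Sox1posGP library. It had 10, 0 and 6 counts in NSC and 16, 8 and 44 in NR, or 0.985, 0.258 and 1.24 CPM in NR. Replicate 2 was again the lowest in both groups. From 68 counts against 16 the pooled ratio of NR to NSC was 5.46 (95% exact interval 3.13 to 10.1), a comparison of reads and not a test over samples. In the 14 alternatives that kept *Mixl1* for testing, its rise from NSC to NR passed in all 14, with log2 fold changes of 1.95 to 2.98 and adjusted p of 6.00e-05 to 0.0306 in edgeR or DESeq2. *Tbx6*, which directs cells of the streak to paraxial mesoderm, had between 0 and 10 counts in all libraries. Its pooled NR to NSC ratio was 1.35 (0.706 to 2.57) and its means of 0.173, 0.316, 0.194 and 0.284 CPM in Baseline, Sox1posGP, NSC and NR showed no group apart from the rest at this depth. *Mesp1*, the factor of early cardiac mesoderm, had 1 count in NSC and 1 in NR and 0 in the other 10 libraries. Its level could not be told from 0 in any group.

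*Hand1*, a factor of lateral and extraembryonic mesoderm and of the heart (chromosome 11, 57828705 to 57832818, minus strand), had no count in Baseline and 1 count in all of Sox1posGP. It had 9, 5 and 8 counts in NSC and 27, 65 and 55 in NR. The NR libraries at 1.66, 2.10 and 1.55 CPM lay above the NSC libraries at 0.201, 0.173 and 0.244 CPM. The log2 fold change of NR against NSC was 3.06 (SE 0.36, adjusted p = 4.53e-05, edgeR). Against the floor of 3 counts over the Baseline group, *Hand1* was at least 1.98-fold higher in NSC and at least 17.0-fold higher in NR, and both differences passed (adjusted p = 0.00448 and 5.72e-06).

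*Sox17*, which directs cells to endoderm and also acts in blood vessels (chromosome 1, 4490931 to 4497354, minus strand), had 1 count in the 3 Baseline libraries and none in Sox1posGP. For Sox1posGP a floor of 3 counts over the group allows up to 0.190 CPM. NSC libraries had 86, 47 and 77 counts (1.92, 1.62 and 2.35 CPM) and NR libraries 283, 281 and 446 (17.4, 9.07 and 12.5 CPM). The ranges of NR and NSC were separate, and both lay above the progenitors. *Sox17* was higher in NR than in NSC by a log2 fold change of 2.72 (SE 0.31, adjusted p = 3.55e-05, edgeR). The change against Baseline passed in NSC and in NR as well, with adjusted p of 2.78e-05 and 1.58e-07. Its size rests on a single Baseline count. The pooled ratio of NSC to Baseline was 56.6 (95% exact interval 10.1 to 2248). The fitted log2 fold change over Baseline was 5.57 in NSC and 8.28 in NR, 4.45 and 7.16 without Baseline replicate 1, and 8.36 and 11.02 without Baseline replicate 2, which held that count. *Gm37587*, which shares 804 exon bases with *Sox17* on the other strand, had at most 2 counts in any library.

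*Foxa2*, a forkhead factor of endoderm, node and floor plate (chromosome 2, 148042877 to 148046969, minus strand), had a different order. It measured 2.86, 3.35 and 2.30 CPM in Baseline, 4.05, 6.28 and 6.00 in Sox1posGP, 27.5, 47.1 and 28.2 in NSC and 13.9, 30.0 and 19.6 in NR. All Sox1posGP libraries lay above all Baseline libraries, and NSC and NR lay above both but overlapped each other. *Foxa2* was the one regulator that passed in Sox1posGP against Baseline, with a log2 fold change of 0.96 (SE 0.38, adjusted p = 0.0658, edgeR). This call held in 17 of 21 alternatives, over which the adjusted p ranged from 0.000963 to 0.197. The adjusted p was 0.157 without Baseline replicate 1, 0.145 without Baseline replicate 3, 0.197 without Sox1posGP replicate 2 and 0.167 without Sox1posGP replicate 3. It rose in NSC by 3.57 (SE 0.33) and in NR by 2.88 (SE 0.33) over Baseline, with adjusted p of 3.04e-07 and 2.33e-06. It was also the one tested regulator lower in NR than in NSC, by a log2 fold change of -0.69 (SE 0.26, adjusted p = 0.0399). Within each replicate number the NR library lay below the NSC library. The NR to NSC difference passed in 17 of 21 alternatives. With the replicate block it was -0.71 (adjusted p = 0.00119, edgeR). Its adjusted p was 0.182 without NSC replicate 2, 0.142 without NR replicate 1 and 0.112 without NR replicate 3. In a fit of these groups alone the adjusted p was 0.107.

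*Gata4*, the zinc-finger factor of heart and endoderm (chromosome 14, 63198922 to 63271692, minus strand), was the regulator with the highest level in the glial progenitors. It measured 18.6, 24.0 and 18.4 CPM in Baseline, 23.7, 30.0 and 27.4 in Sox1posGP, 4.03, 2.93 and 5.97 in NSC and 22.7, 12.5 and 20.2 in NR. The NSC libraries all lay below the libraries of the other groups, whereas Baseline overlapped both Sox1posGP and NR. *Gata4* was lower in NSC than in Baseline by a log2 fold change of -2.23 (SE 0.26, adjusted p = 3.80e-06, edgeR). It was higher in NR than in NSC by 2.09 (SE 0.26, adjusted p = 3.03e-05). The difference of NR from Baseline was -0.14 with a 95% interval of -0.63 to 0.35 (adjusted p = 0.616), and it turned to 0.083 without NR replicate 2. That of Sox1posGP from Baseline was 0.42 with an interval of -0.09 to 0.93 (adjusted p = 0.232).

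*Gata6*, the related factor of primitive endoderm and heart, was at a much lower level. Its CPM values were 1.25, 1.53 and 0.626 in Baseline, 2.90, 2.04 and 1.00 in Sox1posGP, 1.79, 1.21 and 2.01 in NSC and 6.53, 3.68 and 4.69 in NR. The NR libraries stood above all others, while the other 3 groups overlapped. *Gata6* was higher in NR than in NSC by a log2 fold change of 1.55 (SE 0.32, adjusted p = 0.00143, edgeR) and than in Baseline by 2.04 (SE 0.38, adjusted p = 0.000256). Between NSC and Baseline the difference of 0.49 (95% interval -0.28 to 1.26) did not pass, with an adjusted p of 0.275. *1010001N08Rik*, which overlaps *Gata6* by 93 exon bases on the other strand, had at most 2 counts in a library.

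Among the regulators, replicate 2 stood above the other replicates for some genes and below them for others, mostly alike in NSC and NR. This observation was made after the values were seen. *T* in replicate 2 was 1.58 times the mean of replicates 1 and 3 in NSC and 3.24 times in NR, and *Foxa2* 1.69 and 1.80 times. *Eomes* in replicate 2 was 0.240 times the others in NSC and 0.505 in NR, *Gata4* 0.587 and 0.582, *Gata6* 0.636 and 0.656 and *Sox17* 0.760 and 0.605. *Hand1* was at 0.776 in NSC and 1.31 in NR and *Tbx6* at 1.1 and 0.869, the latter from at most 10 counts a library. *T* and *Foxa2* were thus above 1 in both groups, *Eomes*, *Gata4*, *Gata6* and *Sox17* below 1 in both, and *Hand1* and *Tbx6* on different sides in NSC and NR. The ratio of *T* to *Eomes* in RPKM was 1.32, 7.10 and 0.897 in NSC and 2.21, 14.7 and 2.42 in NR. The ratio of *Foxa2* to *Sox17* was 28.8, 58.4 and 24.2 in NSC and 1.60, 6.67 and 3.14 in NR. Replicate 2 was the highest of its group in each case. These ratios compare single libraries and carry no test. Without replicate 2 of both groups the log2 fold change of NR against NSC was 3.68 for *T*, 2.61 for *Eomes*, 2.81 for *Sox17*, 2.11 for *Gata4*, 1.54 for *Gata6* and -0.72 for *Foxa2*. All of these passed.

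Other genes of the lists described next varied between the same libraries. *Shh*, the signal of notochord and floor plate, was 1.94 times as high in replicate 2 of NSC and 3.60 times as high in replicate 2 of NR as the mean of the other replicates. *Chrd*, a BMP inhibitor of the node, had ratios of 1.07 and 2.20, whereas *Lhx1*, another factor of streak and node, had 0.539 and 0.495. *Nodal*, the streak signal, had ratios of 0.531 and 0.581 and its target *Lefty1* 0.476 and 0.522, while the pluripotency genes *Zfp42* and *Dppa5a* had 0.402 and 0.684, and 0.318 and 0.564. The streak signals as a list were mixed, from 0.147 to 2.23 in NSC and from 0.441 to 2.11 in NR, with *Wnt3* at 1.44 and 2.11 and *Bmp4* at 2.23 and 1.08. Over all 9 pluripotency genes the ratios ran from 0.282 to 0.492 in NSC and from 0.548 to 0.705 in NR. Over the 6 floor plate genes tested they ran from 0.350 to 1.94 in NSC and from 1.01 to 3.60 in NR. Over the 9 genes of fibroblast-like mesenchyme they ran from 0.0737 to 6.21 in NSC and from 0.111 to 2.90 in NR. There *Col1a1* had 0.352 and 0.162 and *Col3a1* 0.254 and 0.354, whereas *Acta2* had 6.21 and 2.90. Ratios below 1 in both groups were thus not confined to the pluripotency genes. *Shh*, *Nodal*, *Wnt3*, *Bmp4* and *Acta2* were picked after their values were seen. The part of pluripotent or mesenchymal cells in the levels of the regulators was not tested.

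**Figure D3:**
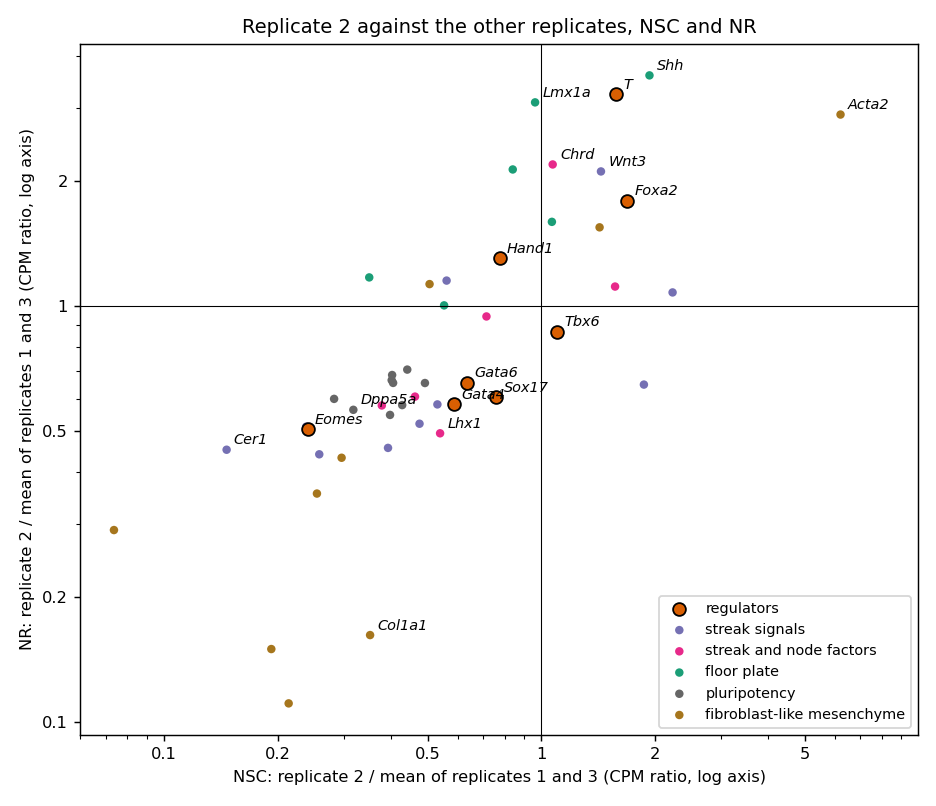
CPM in replicate 2 divided by the mean of replicates 1 and 3, for NSC (horizontal) and NR (vertical), both on logarithmic axes. Each point is a gene with over 3 counts in every NSC and NR library, coloured by list, with the regulators ringed. *T* and *Foxa2* lie at the upper right near *Shh*, and *Eomes*, *Gata4*, *Gata6* and *Sox17* at the lower left, where the pluripotency genes also lie below 1 on both axes. Of the fibroblast-like mesenchyme, *Col1a1* also lies at the lower left and *Acta2* at the upper right.

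The genes that act around these regulators were examined as lists. For the counts below, 21.6% of all genes were higher and 22.7% lower in Sox1posGP than in Baseline. The shares were 44.4% and 33.7% in NSC and 45.6% and 34.1% in NR, each against Baseline. In NR against NSC they were 30% and 26.6%. A count near these shares describes no feature of its list. Of 10 streak signals, namely ligands, co-receptors and inhibitors of the Nodal, Wnt, FGF and BMP pathways, none passed in Sox1posGP against Baseline. All 10 were higher in NSC and in NR than in Baseline, and 8 were higher and 1 lower in NR than in NSC (median log2 fold change 2.69). Their summed level was 1.25 to 2.65 CPM in Baseline, 2.32 to 3.30 in Sox1posGP, 66.5 to 115 in NSC and 452 to 980.0 in NR. The pluripotency genes summed to 1713 to 3218 CPM in the same NR libraries, against 59.4 to 173 in NSC. The part of pluripotent cells in the level of these signals was not tested. *Lefty1*, an inhibitor that Nodal induces, rose from 38.5 ± 14.3 CPM in NSC to 284 ± 107 in NR (SD, n = 3, log2 fold change 2.88), and *Lefty2* from 16.2 ± 9.27 to 147 ± 64.4 (3.17).

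Of the 7 streak and node factors tested, 2 were higher in Sox1posGP than in Baseline, 6 were higher and 1 lower in NSC than in Baseline, and 7 were higher in NR. The 2 in Sox1posGP were *Gsc* (adjusted p = 0.0638, edgeR) and *Cdx2* (0.0804), named after their values were seen. *Cdx2* had no count in Baseline and at most 2 in a Sox1posGP library, below the floor of 3 counts. In NR against NSC 5 were higher. *Lhx1*, a partner of *Foxa2* in the anterior streak, was at 23.0 ± 7.24 CPM in NSC and 24.2 ± 8.51 in NR (log2 fold change 0.07, SE 0.29), and *Chrd* at 5.51 ± 0.248 and 12.2 ± 6.04. *Msgn1*, a target of *Tbx6* in the presomitic mesoderm, had no count in NSC and a mean of 0.0978 CPM in NR, and *Noto*, a notochord factor, 0.0325 and 0.184 CPM. Neither was tested. Both were named after their values were seen.

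Genes of later mesoderm were also counted. Of 10 genes of paraxial and lateral mesoderm, 3 were higher and 1 lower in Sox1posGP than in Baseline (21.6% and 22.7% of all genes). In both NSC and NR 8 were higher and 1 lower than in Baseline, and 6 were higher in NR than in NSC (30% of all genes). The gene lower in both was *Foxf1*, named after its values were seen and also among the 3 higher in Sox1posGP. It was at 19.6 ± 4.65 CPM in Baseline, 36.4 ± 2.11 in Sox1posGP, 0.837 ± 0.0689 in NSC and 1.43 ± 0.586 in NR. *Tcf15*, a somite factor that ESCs also make, rose from 10.6 ± 3.4 CPM in NSC to 54.2 ± 18.9 in NR, and *Foxc1*, of presomitic mesoderm and mesenchyme, from 39.5 ± 10.8 to 54.1 ± 12.7. Of 8 heart genes tested 2 were higher in Sox1posGP, 6 higher and 2 lower in NSC, 6 higher and 1 lower in NR, each against Baseline, and 4 higher in NR than in NSC. *Mef2c*, which neurons also make, was at 39.1 ± 1.36 CPM in Baseline, 108 ± 6.53 in Sox1posGP, 5.48 ± 1.73 in NSC and 4.63 ± 0.500 in NR. *Actc1*, the cardiac actin gene, was at 30.0 ± 28.1 CPM in NSC, where replicate 2 alone reached 62.5. Of 9 blood and endothelium genes tested 3 were higher in Sox1posGP, 7 in NSC and 8 in NR than in Baseline, and 6 were higher in NR than in NSC. *Pecam1*, an adhesion molecule of endothelium and ESCs, rose from 4.40 ± 2.17 CPM in NSC to 91.2 ± 28.4 in NR, and *Gata2*, a blood and neural factor, from 15.7 ± 4.47 to 23.4 ± 8.05.

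On the endoderm side, 8 genes of definitive endoderm and gut were tested. Of these 1 was higher in Sox1posGP, 5 in NSC and 7 in NR than in Baseline, and 6 were higher and 1 lower in NR than in NSC. *Trh*, a hormone precursor of early endoderm and of ESCs, had 53.3 ± 25.1 CPM in NSC and 255 ± 108 in NR. *Foxa1*, the close relative of *Foxa2*, had 10.5 ± 0.571 CPM in Baseline, 25.6 ± 2.26 in NSC and 41.5 ± 22.1 in NR. Its rise from NSC to NR passed (log2 fold change 0.70, SE 0.27, adjusted p = 0.0443, edgeR), opposite in sign to the change of *Foxa2*. The NSC libraries were at 24.1, 24.4 and 28.2 CPM and the NR libraries at 26.8, 66.9 and 30.8. These groups thus overlapped, and replicate 2 stood far above the other NR libraries. A fit of *Foxa1* without replicate 2 is not given here. Of 6 extraembryonic endoderm genes tested 1 was higher in Sox1posGP, all 6 in NSC and all 6 in NR than in Baseline, and 2 were higher and 2 lower in NR than in NSC. *Dab2*, an endocytic adaptor, had 36.0 ± 7.78 CPM in NSC and 42.3 ± 5.89 in NR, and *Lama1*, a laminin of basement membranes, 70.8 ± 21.3 and 30.0 ± 17.1. *Afp* and *Ttr*, genes of the visceral endoderm, had no count in Baseline or Sox1posGP and means of at most 0.0926 and 0.381 CPM in any group. Other genes of this list differed from them. *Amn* rose from 0.411 ± 0.172 CPM in NSC to 3.39 ± 1.62 in NR (log2 fold change 3.01, SE 0.46). *Apob* was at 0.479 and 0.971 CPM and *Cubn* at 0.954 and 0.959 in NSC and NR. The genes from *Afp* to *Cubn* were all named after their values were seen.

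Of 6 floor plate genes tested 1 was higher in Sox1posGP, 6 in NSC and 5 in NR than in Baseline, and 3 were higher and 2 lower in NR than in NSC. The gene higher in Sox1posGP was *Spon1*, a secreted matrix protein, which rose from 41.3 ± 3.62 to 202 ± 13.1 CPM beside the rise of *Foxa2*. *Shh* itself had at most 3 counts in a Baseline and 6 in a Sox1posGP library and did not pass (adjusted p = 0.545, edgeR). In NSC *Shh* was at 19.2 ± 7.98 CPM, in NR at 37.8 ± 30.4. *Ntn1*, an axon guidance cue, fell from 192 ± 35.9 CPM in NSC to 73.3 ± 37.3 in NR. The part of floor plate cells in the *Foxa2* level was not tested.

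Markers of neural and other cells moved with the same groups. All 8 neural progenitor genes were lower in NR than in NSC, with summed levels of 470 to 996 CPM in NR, 1823 to 2216 in NSC, 1300 to 1346 in Baseline and 928 to 987 in Sox1posGP. Against Baseline 3 were higher and 3 lower in Sox1posGP (median log2 fold change 0.17), 6 and 2 in NSC and 4 and 4 in NR. *Fabp7*, a fatty acid carrier of radial glia, fell from 487 ± 157 CPM in NSC to 162 ± 67.1 in NR, and *Cdh2*, N-cadherin, from 552 ± 66.2 to 224 ± 106. All 9 pluripotency genes were higher in NR than in NSC and higher in both than in Baseline, and none passed in Sox1posGP against Baseline. All 9 genes of fibroblast-like mesenchyme were higher in NSC and in NR than in Baseline, with summed levels of 1836 to 3577 and 2130 to 7807 CPM, against 38.4 to 45.1 in Baseline and 47.2 to 59.5 in Sox1posGP. Of 4 neural crest genes tested 2 were higher and 2 lower in both NSC and NR than in Baseline, while 1 was higher and 1 lower in Sox1posGP, and 2 were higher in NR than in NSC. *Snai2*, a factor of crest emigration, was the one higher in Sox1posGP (5.67 ± 0.775 CPM, at most 2 counts in a Baseline library), and *Ets1* the one lower (312 ± 15.4 CPM in Baseline, 176 ± 16.0 in Sox1posGP). Of the collagen genes, *Col1a1* was at 8.30 ± 0.687 CPM in Baseline and 848 ± 405 in NSC, and *Col3a1* at 8.13 ± 1.90 and 1126 ± 645. The median log2 fold change of NR against NSC was 1.18 for the streak and node factors, 0.69 for paraxial and lateral mesoderm, 0.98 for heart, 1.06 for blood and endothelium, 1.78 for definitive endoderm and gut, 0.10 for extraembryonic endoderm and 0.26 for the floor plate, against 0.01 over all genes. It was 4.14 for pluripotency, -1.55 for neural progenitors, -1.17 for intermediate neuronal progenitors, 0.26 for neural crest and 0.80 for fibroblast-like mesenchyme. No list was tested as a set, and the part of these cells in the levels of the regulators was not tested.

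**Figure D4:**
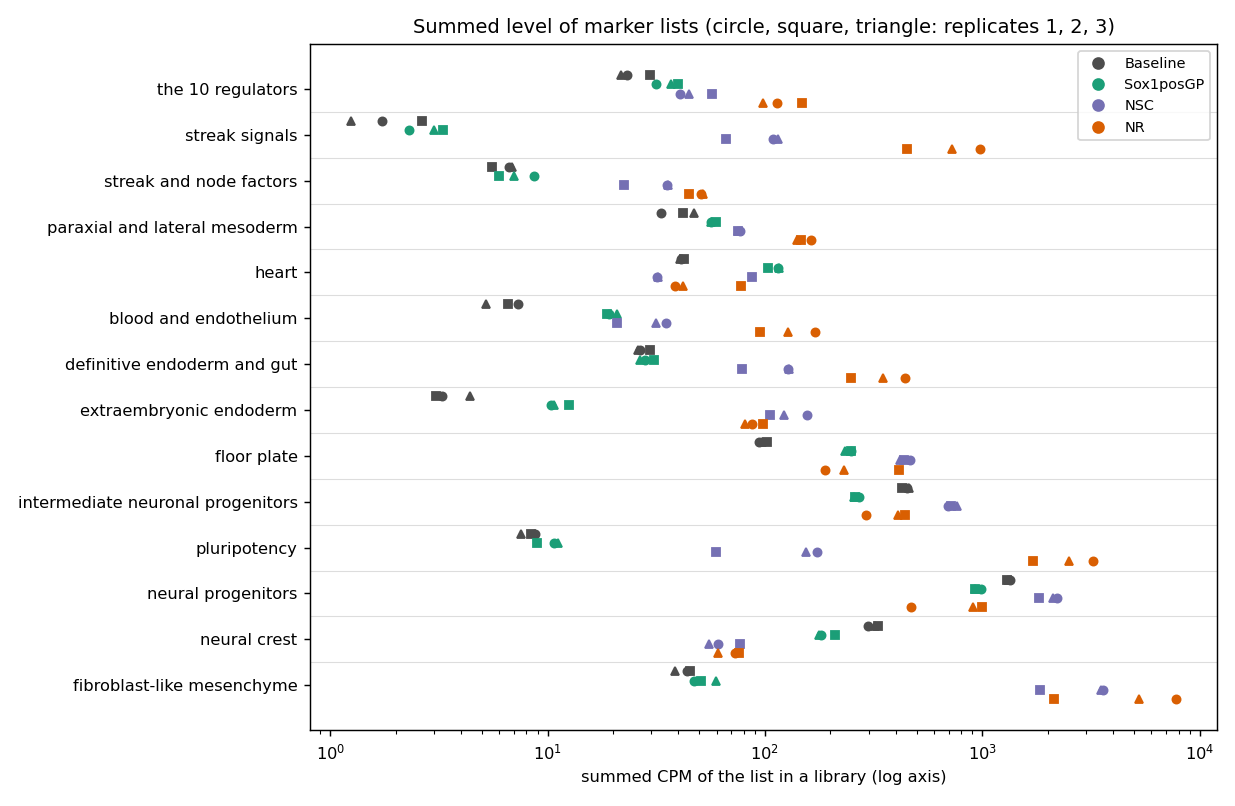
Summed CPM of each marker list in every library, on a logarithmic axis, with colours for groups and circles, squares and triangles for replicates 1, 2 and 3. The 10 regulators sum to 97.8 to 147 CPM in NR, and the pluripotency genes to 1713 to 3218 CPM in the same libraries against 59.4 to 173 CPM in NSC.

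The genes whose log2 CPM followed a regulator most closely over the 12 libraries were listed as a description. For *T* they were *Slc9a3r1* (Pearson r = 0.975), *2210011C24Rik* (0.968) and *Tmem51* (0.968), for *Eomes* *Nphs1* (0.987), *Jakmip1* (0.986) and *Zfp978* (0.984), and for *Sox17* *Mpzl2* (0.997), *Hspb1* (0.996) and *Zfp473* (0.995). For *Foxa2* they were *Net1* (0.992), *Relt* (0.989) and *Palm* (0.989), for *Gata4* *Zcwpw1* (0.978), *Csf2ra* (0.976) and *Deptor* (0.975). *Hand1* was followed by *Slc5a1* (0.993), *Cd164l2* (0.990) and *Cfap52* (0.990), and *Gata6* by *Plekhd1* (0.959), *Wdr34* (0.944) and *Carnmt1* (0.938). No gene was shared between these lists. The points are 4 groups of 3 libraries that share their depth and composition.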

How the data were processed

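RNA was sequenced from 12 samples in 4 groups of 3. Libraries were made from PicoPure-isolated RNA by SMART-Seq amplification, which does not mark molecules. Counting intervals thus treat every read as its own molecule. They cover the counting error of reads only and may be too narrow for that of molecules. The authors deposited raw gene counts for 45706 Ensembl genes without normalization, and all 12 columns were used. The submitters' processing notes name STAR 2.6, RSEM 1.1.14 and mm10, with no roles, and the counts are whole numbers. The strand setting and the annotation are not given in the sources used here. Samples were grouped by their titles. Symbols (45143 genes, 563 without) and exon lengths came from GENCODE vM21 on GRCm38.

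Counts were scaled by TMM and filtered by filterByExpr with the 4 groups. They were tested with edgeR 4.0.16 (glmQLFit and glmQLFTest over all 12 libraries, no block, prior count 0.125) under R 4.3.3 with limma 3.58.1. P values were adjusted by Benjamini and Hochberg over 17003 genes and called under 0.1. Standard errors were taken as the size of the fitted log2 change over the root of its F statistic, and 95% intervals are 1.96 of them. Ratios of pooled counts have exact (Clopper-Pearson) intervals. The script was checked on simulated counts. Python 3.11.15 with scipy 1.17.1, pandas 2.3.3 and matplotlib 3.10.9 served for tables and figures.

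Same-numbered NSC and NR libraries deviated together from their group means (correlations 0.229, 0.490 and 0.296), so that the numbers were taken to pair these groups by the rule of every pair over 0.1, and the paired fit is an alternative. Among differently numbered libraries, NR 3 with NSC 1 gave 0.301 and NR 1 with NSC 3 0.186, while those with a replicate 2 gave -0.262 to -0.410. The rule thus shows that replicates 2 of NSC and NR deviated together. It does not settle how replicates 1 and 3 of these groups are paired. With the other groups no correlation of same-numbered libraries passed 0.048. Alternatives were DESeq2 1.42.0, other scalings, filters, prior counts and thresholds, the block, fits of the 2 groups compared and the omission of each library. The omission of both replicates 2 of NSC and NR was added after seeing the data.

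No measured value enters the rule for the regulators, but they and the 13 other lists were chosen with earlier results of these data known. The text names all 10 regulators, the 2 genes of each list with the highest group mean, *Sox1*, and for each tested regulator the 3 genes most correlated with it. Other genes are named as picked after seeing their values.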

Additional observations from a re-analysis of the deposited data

How the results depend on the processing

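The calls of NSC and NR against Baseline for *T*, *Eomes*, *Hand1*, *Sox17* and *Foxa2*, of *Gata4* in NSC and of *Gata6* in NR held in every alternative that gave a value (20 or 21 each), as did the 6 rises in NR against NSC, except that *Gata6* (1.55) did not reach a fold change over 4. The number of regulators higher in Sox1posGP than in Baseline was 1. It was 2 with upper-quartile scaling, with no filter, with the replicate block, in a fit of only the 2 groups and with DESeq2's Wald test, 3 without replicate 2 of NSC and NR, and 0 under a fold change over 4 or an adjusted p under 0.05. With one library left out it ranged from 0 to 2, with 0 without Baseline replicate 1, Baseline replicate 3, Sox1posGP replicate 2 or Sox1posGP replicate 3, and 2 without any one NR replicate. The second gene was *T* in each of these except the fit of 2 groups, where it was *Gata4* (log2 fold change 0.49, adjusted p = 0.00306). The number lower in NR than in NSC was 1, and 0 in a fit of only these groups or with a fold change over 4. With one library left out it was 0 to 1, with 0 without NSC replicate 2, NR replicate 1 or NR replicate 3. *Gata4* in NR against Baseline (-0.14) reversed to 0.083 without NR replicate 2, with a range of -0.34 to 0.083 when one library was left out, and to 0.043 without replicate 2 of NSC and NR. At a common floor, which is higher than the own floor of the NSC and NR libraries, fewer regulators counted in each of them. NSC replicates 1, 2 and 3 had 6, 5 and 6 in place of 9, 8 and 9. NR replicates 1, 2 and 3 had 8, 7 and 8 in place of 9. The cause of the other shifts was not tested. The replicate block gave *T* in Sox1posGP against Baseline a log2 fold change of 2.58 (adjusted p = 0.0212, edgeR), although same-numbered libraries of these groups did not deviate together, and it changed no other call of a regulator. The depth of Baseline and Sox1posGP limits every statement on regulators at 3 counts or fewer, and their absence there is not shown.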
